A study of Mus musculus with 12 samples.

Results

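Gonadal white adipose tissue is the fat around the gonads, which in males lies against the epididymis. The question here was whether the response of this tissue to a high-fat diet differed between wild-type mice (WT) and mice with a macrophage-specific knockout of Bnip3 (MKO). All 12 libraries of the series were used, with 1 mean fitted for each of 4 groups of 3 biological replicates. The groups were WT on normal chow (WT NCD), WT on high-fat diet (WT HFD), MKO on normal chow (MKO NCD) and MKO on high-fat diet (MKO HFD), and every mouse had been put on its diet at 8 weeks of age for 12 weeks. The Cre line that drives the deletion, the part of Bnip3 that is removed, the sex and the strain are not given in the sources used here. The diet response of a gene is its log2 fold change of HFD against NCD within 1 genotype. The interaction is the response in MKO minus the response in WT, so a value below 0 means a smaller rise, or a larger fall, in the knockout. Of 32238 genes in the table, 20297 had enough counts to be tested.

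In the obese fat pad, monocyte-derived macrophages gather around failing adipocytes, take up and store their lipid, and remodel the surrounding collagen. Adipocytes themselves make fatty acids from glucose through citrate export and NADPH, and turn them into triglyceride on a glycerol-3-phosphate backbone. The product of Bnip3 sits on the mitochondrial surface, where it recruits the autophagy machinery so that the organelle is removed.

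Levels are in CPM, read counts scaled to the normalised library size, given for replicates 1, 2 and 3 in that order. Changes are on the log2 scale and carry a standard error (SE), and adjusted p is from the quasi-likelihood test of edgeR with Benjamini-Hochberg adjustment over the 20297 genes, with a threshold of 0.05. Library totals were 52.9 to 72.7 M counts. The MKO NCD rep 2 library stood apart, with 57.3% of all genes at 0 against 15.6% to 38.3% in the other 11 libraries, and with 702 genes at 0 where all others had 100 counts or more. Transcripts typical of the epididymis were present in the WT NCD libraries, where 13 such genes summed to 6358 to 7694 CPM. The same sum was at most 20.6 CPM in MKO NCD, 0.925 CPM in WT HFD and 0.424 CPM in MKO HFD. Bnip3 itself, measured over all cells of the tissue, read 392, 568 and 475 CPM in WT NCD, 547, 811 and 563 in MKO NCD, 418, 358 and 409.9 in WT HFD and 446, 415 and 476 in MKO HFD. Its genotype difference did not pass the threshold on either diet, with 0.421 (adjusted p = 0.210) on NCD and 0.173 (adjusted p = 0.786) on HFD, and its interaction was -0.25 (SE 0.25, adjusted p = 0.792).

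The diet response was smaller in the knockout for almost every gene in which the diet responses of the genotypes could be told apart. For 31 of these genes, by a rule given below, WT NCD was the group that stood apart, and for 15 it was WT HFD. The interaction passed the threshold for 53 genes, 0.261% of those tested, of which 24 (0.118%) were above 0 and 29 (0.143%) below 0. In WT, 3610 genes (17.8%) differed between HFD and NCD, with 1929 higher on HFD (9.50%) and 1681 lower (8.28%). The part of the epididymis transcripts of WT NCD in these WT calls was not tested. In MKO, 408 genes (2.01%) differed, with 212 higher on HFD (1.04%) and 196 lower (0.966%). With these MKO shares, a short gene list with no member called in MKO is close to the share over all genes tested. Genes called in both genotypes in the same direction numbered 321, which is 8.89% of the WT calls and 78.7% of the MKO calls, and 2 genes were called in opposite directions.

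Of the 53 genes, 50 were blunted, meaning that the MKO response was the smaller in size, whatever its sign. These comprised 28 genes that rose in WT and 22 that fell in WT, and 4 of the 50 also passed the diet test in MKO. In 1 gene, Sgpl1, the response was enlarged in MKO, and in 2 genes the responses were called in opposite directions. A further 175 genes were kept: they were called in both genotypes in the same direction, and the 95% interval of their interaction lay within -1 to 1. Another 142 genes were called in both genotypes but had wider intervals, so that a change of that size could not be told from none. The counts do not show that the remaining genes respond alike, because the interval lay within -1 to 1 for 6061 genes, 29.9% of those tested. The smallest interaction that passed was 0.98 in size, and at an unadjusted p under 0.05 there were 2652 genes.

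**Figure D1:**
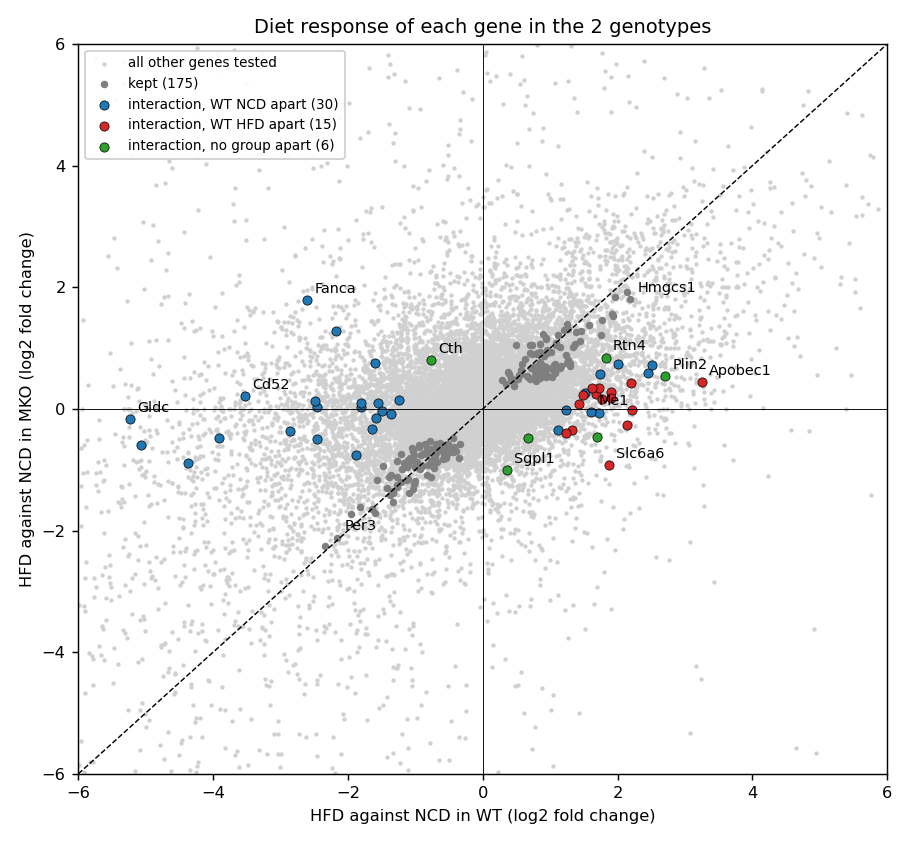
Log2 fold change of HFD against NCD in WT (horizontal axis) and in MKO (vertical axis), 1 point per gene, with the dashed line marking equal responses. Most genes with an interaction have the smaller response in MKO, with the WT response on either side of 0. Some, among them Rtn4, Cth and Sgpl1, also lie away from 0 in MKO. The 175 kept genes lie near the dashed line by the definition of their class. Outside the axes at 6 are 1030 genes, of which 2 have an interaction.

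The number of genes called rested on single libraries. Leaving out WT NCD rep 1, 2 or 3 gave 28, 38 or 108 genes, and leaving out MKO NCD rep 1, 2 or 3 gave 19, 191 or 4. It gave 2, 2 and 67 genes without WT HFD rep 1, 2 and 3, and 8, 8 and 288 without MKO HFD rep 1, 2 and 3. All 53 genes were still called without MKO NCD rep 2, the library with many genes at 0. All 53 kept the sign of their interaction in each of these fits. Gldc was called in all 12 of them, Apobec1 in 11, and Lmo2 and Nhsl1 in 10 each, while 22 of the 53 genes were called in at least 6.

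**Figure D2:**
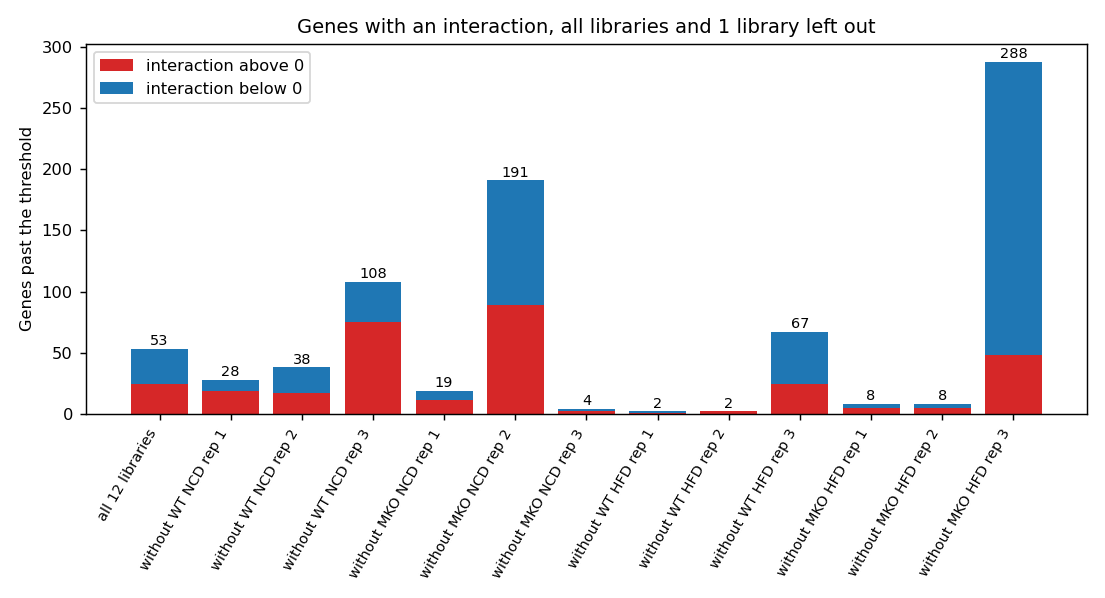
Number of genes with an interaction past the threshold, with all 12 libraries and with each library left out in turn, split by sign. The count was 53 with all libraries, fell to 2 without WT HFD rep 1 or rep 2, and reached 288 without MKO HFD rep 3 and 191 without MKO NCD rep 2.

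For each gene with an interaction, the group whose mean stood apart was marked, by the rule that its gap to the nearest other group mean exceeded the range of the other 3 means and that its libraries did not overlap the other 9. WT HFD stood apart for 15 genes, WT NCD for 31 genes, and no group for 7. MKO NCD and MKO HFD stood apart for none of the 53 genes, against 438 and 237 genes among all 20297, where WT NCD stood apart for 1762 and WT HFD for 1441. With a gap of more than 2 times the range, the counts were 7 genes for WT HFD, 19 for WT NCD and 27 for no group. For the 31 genes marked for WT NCD, MKO and WT differed on NCD in all 31 and on HFD in 2, Sgpp1 and Cd52. For the 15 genes marked for WT HFD, MKO and WT differed on HFD in all 15 and on NCD in 1, Frrs1. The mark and these genotype tests use the same values. The counts of 31 and 15 therefore follow largely from the rule and describe the marked genes only.

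The 15 genes for which WT HFD stood apart were all higher in that group. In whole tissue, fewer cells of a type and less RNA per cell cannot be told apart. Apobec1 (chr6:122577792-122603024), the cytidine deaminase that edits apolipoprotein B mRNA, read 13.4, 18.3 and 16.4 CPM in WT NCD, 21.02, 27.3 and 21.8 in MKO NCD, 120.3, 163 and 174 in WT HFD and 28.1, 25.2 and 41.9 in MKO HFD. Every WT HFD library was above every other library. All MKO libraries on either diet lay above all WT NCD libraries, and the MKO groups overlapped. Its response was 3.25 (adjusted p = 6.12e-05, SE 0.23) in WT and 0.44 (adjusted p = 0.325, SE 0.21) in MKO, with an interaction of -2.81 (SE 0.31, adjusted p = 0.00983). Sirpa (chr2:129591042-129632228), the myeloid receptor for CD47 that restrains phagocytosis, read 58.7, 81.4 and 72.7 CPM in WT NCD, 104, 124 and 84.6 in MKO NCD, 304, 430.3 and 249 in WT HFD and 79.3, 89.8 and 139.5 in MKO HFD. The lowest WT HFD library was above the highest of the other groups, MKO HFD rep 3. Sirpa had an interaction of -2.23 (SE 0.36, adjusted p = 0.0408), with responses of 2.21 in WT and -0.02 in MKO.

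Slc6a6 (chr6:91684048-91759063), the taurine transporter, read 86.5, 107 and 93.02 CPM in WT NCD, 123, 165 and 122 in MKO NCD, 315, 446 and 288 in WT HFD and 61.4, 53.2 and 100.7 in MKO HFD. It rose in WT, by 1.87 (adjusted p = 8.00e-04, SE 0.25), and all 3 MKO HFD libraries lay below all 3 MKO NCD libraries, although the MKO response of -0.93 (adjusted p = 0.0908, SE 0.25) did not pass. The interaction was -2.80 (SE 0.35, adjusted p = 0.0180). Lmo2 (chr2:103957903-103981878), a LIM-domain adaptor of blood cell transcription complexes, read 14.5, 13.5 and 13.3 CPM in WT NCD, 15.97, 16.7 and 15.8 in MKO NCD, 47.4, 57.7 and 48.9 in WT HFD and 20.7, 15.2 and 18.7 in MKO HFD, and had an interaction of -1.73 (SE 0.19, adjusted p = 0.00983). All WT HFD libraries were above all others for Lmo2, and the other 9 lay close together. Csf2rb2, a receptor subunit for interleukin 3 in the mouse, had an interaction of -2.41 (SE 0.40, adjusted p = 0.0428). Its reads may be shared with the near-identical Csf2rb, so its count is uncertain.

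Stab1 (chr14:31139017-31168651), a scavenger receptor of macrophages and endothelium, read 57.95, 61.01 and 61.8 CPM in WT NCD, 95.05, 85.2 and 92.1 in MKO NCD, 140.0, 196 and 151 in WT HFD and 88.1, 84.5 and 116 in MKO HFD. WT HFD was the highest group and WT NCD the lowest, without overlap, and the MKO groups overlapped each other in between. Its interaction was -1.35 (SE 0.21, adjusted p = 0.0304). The tyrosine kinase Fes, expressed in myeloid cells, had an interaction of -1.62 (SE 0.24, adjusted p = 0.0262). The ferric reductase Frrs1 had an interaction of -1.61 (SE 0.25, adjusted p = 0.0294), and was higher in MKO than in WT on NCD. The remaining genes of this kind were Cmtm3 (-1.37), which has a MARVEL domain, the phosphoinositide kinase Pip4k2a (-1.43), the lysosomal carboxypeptidase Prcp (-1.29) and Tnfsfm13 (-1.63). Tnfsfm13 joins the neighbouring genes Tnfsf12 and Tnfsf13, so that reads of those genes and of the joint transcript cannot be told apart by a gene count.

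Col3a1, Mmp14 and Tgfb1 were the matrix genes among the 15. Tgfb1 (chr7:25687002-25705077), a cytokine that drives collagen synthesis, read 26.8, 23.9 and 24.2 CPM in WT NCD, 29.1, 35.5 and 32.9 in MKO NCD, 65.1, 79.7 and 65.99 in WT HFD and 40.4, 35.5 and 37.8 in MKO HFD. The lowest WT HFD library was well above the highest MKO HFD library, and an interaction of -1.27 (SE 0.17, adjusted p = 0.0225) went with a response of 1.49 (adjusted p = 8.95e-05, SE 0.12) in WT and of 0.22 (adjusted p = 0.366, SE 0.12) in MKO. Col3a1 (chr1:45311538-45349706), the chain of type III collagen, read 491, 742 and 608 CPM in WT NCD, 967, 841 and 737 in MKO NCD, 3304, 3059.6 and 2092 in WT HFD and 1295, 906 and 1215 in MKO HFD. All WT HFD libraries were above all others, and the MKO groups overlapped. The interaction of Col3a1 was -1.78 (SE 0.31, adjusted p = 0.0489), and that of the membrane-bound collagenase Mmp14 was -1.66 (SE 0.29, adjusted p = 0.0489). Of the 15 genes, 0 passed without WT HFD rep 2, 1 (Apobec1) without WT HFD rep 1, and 2 (Apobec1 and Lmo2) without MKO NCD rep 3 or without MKO HFD rep 1. There were 3 without MKO HFD rep 2, 4 without MKO NCD rep 1, 5 and 7 without WT NCD rep 1 and rep 2, and 10 and 12 without WT NCD rep 3 and WT HFD rep 3, while all 15 passed without MKO NCD rep 2 or MKO HFD rep 3.

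**Figure D3:**
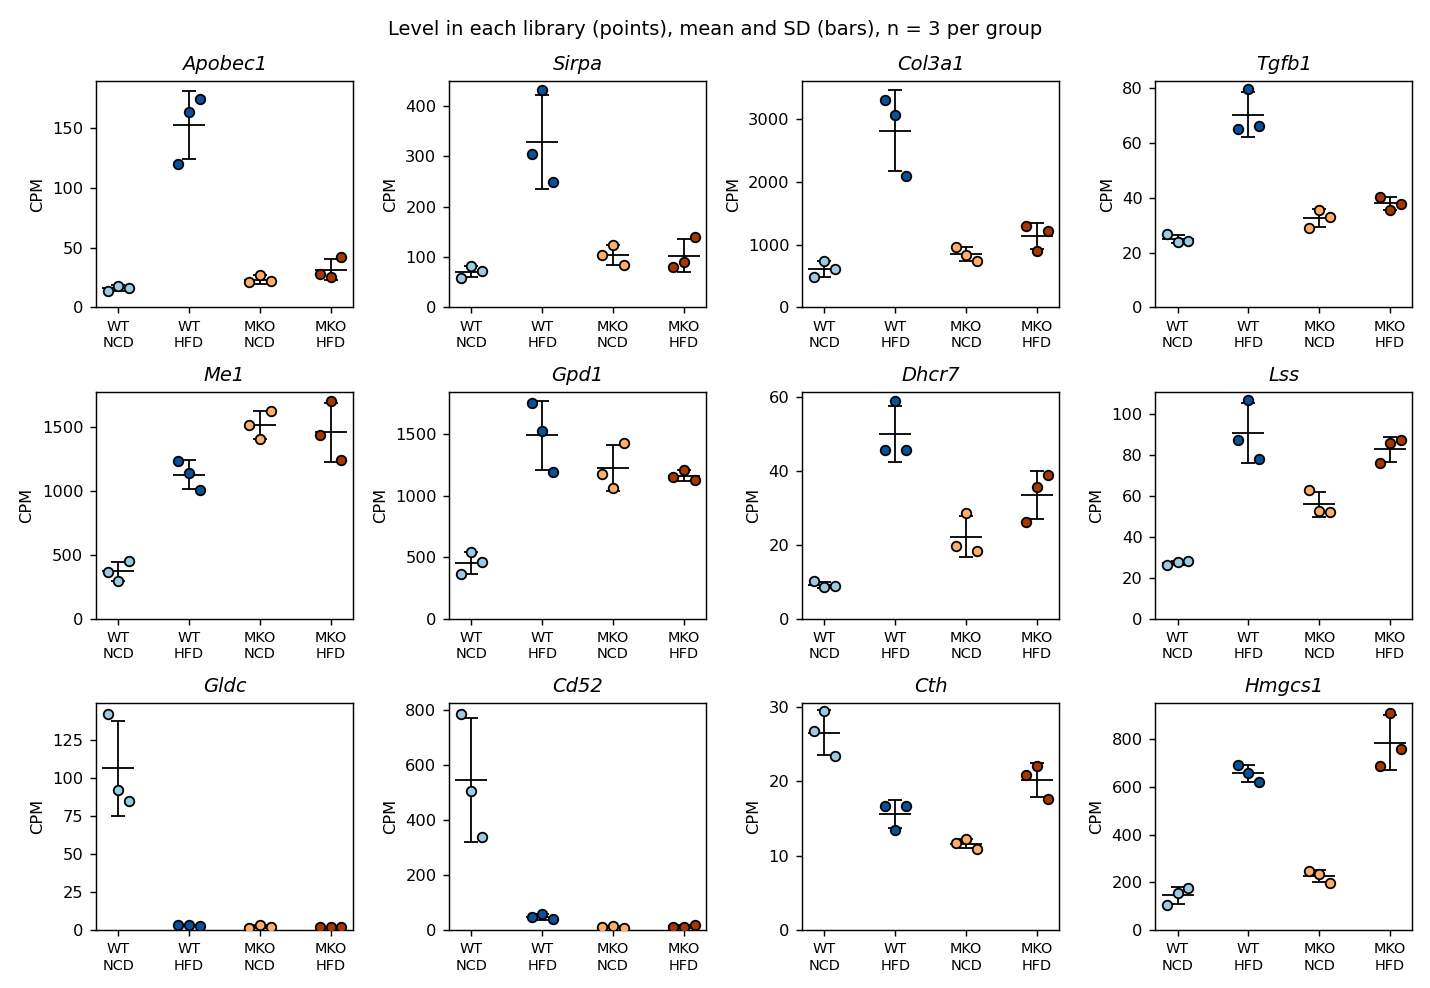
Level in CPM of 12 genes in each library (points) with the mean and SD of each group (bars, n = 3). Apobec1, Sirpa, Col3a1 and Tgfb1 are high in WT HFD, Me1, Gpd1, Dhcr7 and Lss are low in WT NCD, Gldc and Cd52 are high in WT NCD, Cth moves in opposite directions, and Hmgcs1 rises in both genotypes.

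Extracellular matrix and fibrosis genes, a list of 19, showed the same split at the level of counts. In WT, 18 of the 19 rose and 0 fell, against 9.50% and 8.28% of all genes tested. In MKO, 6 rose and 0 fell, against 1.04% and 0.966%. All 19 interactions were below 0, and 3 passed the threshold, beside 0.143% of all genes tested that passed below 0. DESeq2 called 9 of these 19 interactions and limma-voom 7. The median response over the list was 1.77 in WT and 0.72 in MKO, with a median interaction of -1.15, beside medians of -0.09, 0.06 and 0.12 over all genes tested. The summed level was 5574 to 7099 CPM in WT NCD, 7746 to 9445 in MKO NCD, 18587 to 21660.2 in WT HFD and 11952 to 15907 in MKO HFD. Thus each MKO HFD library lay above every NCD library and below every WT HFD library. Lumican (Lum), a proteoglycan that spaces collagen fibrils, read 25.6, 54.6 and 34.3 CPM in WT NCD, 49.2, 53.1 and 65.7 in MKO NCD, 393, 255 and 221 in WT HFD and 69.8, 41.7 and 97.4 in MKO HFD, and had an interaction of -2.61 (SE 0.49, adjusted p = 0.0565). Col1a1, the main chain of type I collagen, had an interaction of -2.07 (SE 0.42, adjusted p = 0.0605). Both miss the threshold and were named after their values were seen. Without MKO HFD rep 3, 8 of the 19 interactions passed and 0 members rose in MKO. Without MKO NCD rep 2, 4 interactions passed and 3 members rose in MKO.

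Markers of fibroblasts and their progenitors, the cells that make most matrix, moved beside this list. Against 9.50% of all genes tested in WT and 1.04% in MKO, 7 of 10 markers rose in WT and 0 in MKO. In MKO 2 had an unadjusted p under 0.05, and DESeq2 and limma-voom called 0. The medians were 0.98 in WT and 0.10 in MKO, and the median interaction was -0.61. The MKO median was 0.36 without MKO NCD rep 2 and 0.04 without MKO HFD rep 3. No interaction passed in edgeR or limma-voom, with 5 at an unadjusted p under 0.05 in edgeR, and DESeq2 called 3, all below 0. The summed level was 542 to 790.0 CPM in WT NCD, 781 to 958 in MKO NCD, 1278 to 1525 in WT HFD and 995 to 1201 in MKO HFD, so that WT HFD was above all other libraries and MKO HFD above all NCD libraries. The part of these cells in the matrix result was not tested.

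Macrophage markers carried a large diet response in WT. Of 18 markers, 15 rose in WT and 0 fell, while in MKO 0 rose and 0 fell. Over all genes tested, 9.50% rose and 8.28% fell in WT, and 1.04% rose and 0.966% fell in MKO. The MKO counts of 0 are close to the MKO shares. The median response of the markers was 2.57 in WT and 0.28 in MKO, and their median interaction was -2.30. The MKO median was -0.22 without MKO HFD rep 3 and 0.52 without MKO NCD rep 2, so that its sign rests on single libraries. None of the 18 interactions passed the threshold in the edgeR test, although all 18 were below 0 and 16 had an unadjusted p under 0.05. Over all genes tested, 8600 of 20297 interactions were below 0 and 2652 had an unadjusted p under 0.05. With DESeq2 13 of the 18 passed, all below 0, and with limma-voom 0 passed. In MKO, 4 of the 18 diet responses had an unadjusted p under 0.05 in edgeR, while DESeq2 called 1 of the 18, lower, and limma-voom 0. The summed level was 485 to 1166 CPM in WT NCD, 645 to 1037 in MKO NCD, 3585 to 5813 in WT HFD and 575 to 1502 in MKO HFD. WT HFD was above all other libraries, and the MKO HFD libraries overlapped both NCD groups. MKO HFD rep 3 was the highest of its group, at 1502 CPM against 770.3 and 575 CPM. Without MKO HFD rep 3, 9 of the 18 interactions passed, and without MKO NCD rep 2 the count was 0.

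Adgre1, which encodes the macrophage surface antigen F4/80, read 15.9, 39.2 and 23.3 CPM in WT NCD, 28.9, 54.5 and 20.7 in MKO NCD, 199, 299 and 139 in WT HFD and 26.7, 18.1 and 63.4 in MKO HFD. All WT HFD libraries exceeded all others, and MKO HFD rep 3 was more than any WT NCD library. Adgre1 had an interaction of -2.97 (SE 0.74, adjusted p = 0.0983). Cd68, a lysosomal membrane protein of macrophages, read 13.7, 32.7 and 17.1 CPM in WT NCD, 26.8, 51.02 and 18.9 in MKO NCD, 273, 361 and 189.5 in WT HFD and 31.99, 16.1 and 77.9 in MKO HFD, and had an interaction of -3.31 (SE 0.80, adjusted p = 0.0906). Its MKO HFD libraries were widely spread. Clec7a, the receptor for fungal glucans, and Csf1r, through which CSF1 keeps macrophages alive, came closest to the threshold among the 18, with interactions of -2.80 (SE 0.61, adjusted p = 0.0695) and -1.92 (SE 0.42, adjusted p = 0.0695). Lyz2, which encodes lysozyme, had an interaction of -1.96 (SE 0.55, adjusted p = 0.126).

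Among 17 genes of lipid-associated macrophages, which surround dying adipocytes, 15 rose in WT and 0 in MKO, against 9.50% and 1.04% of all genes. Their median response was 2.98 in WT and 0.72 in MKO, with a median interaction of -1.66. The MKO median was 0.36 and the median interaction -2.66 without MKO HFD rep 3. All 17 interactions were below 0, 10 had an unadjusted p under 0.05, and 1, that of Fabp5, passed. For Fabp5 it was WT NCD that stood apart, as the low group. Its WT HFD and MKO HFD libraries overlapped, and its MKO HFD libraries lay above its MKO NCD libraries. DESeq2 called 7 of these interactions and limma-voom 5, all below 0. In MKO, 8 diet responses had an unadjusted p under 0.05, and DESeq2 called 1 and limma-voom 0. Lipa, the lysosomal lipase that breaks down taken-up lipid, read 40.7, 61.8 and 56.4 CPM in WT NCD, 67.4, 85.9 and 57.2 in MKO NCD, 435, 549 and 273 in WT HFD and 77.2, 63.6 and 154 in MKO HFD. WT HFD was above all other libraries, and MKO HFD rep 3 was the highest outside that group. Lipa had an interaction of -2.500 (SE 0.49, adjusted p = 0.0565), and the lysosomal protease Ctsd had an interaction of -1.35 (SE 0.25, adjusted p = 0.0565). Lgals3, which encodes galectin-3 and was named after its values were seen, had an interaction of -2.38 (SE 0.63, adjusted p = 0.113).

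Trem2, the lipid-sensing receptor of these cells, read 2.24, 7.75 and 2.37 CPM in WT NCD, 3.58, 0 and 3.24 in MKO NCD, 97.1, 154 and 60.95 in WT HFD and 5.78, 2.19 and 23.8 in MKO HFD. Its MKO HFD libraries were widely spread, and an interaction of -2.42 (SE 1.57, adjusted p = 0.610) had an interval of -5.87 to 1.03. Without MKO HFD rep 3, 8 of the 17 interactions passed. The summed level of this list is not read here, because it holds Fabp4, Lpl and Cd36, which adipocytes also make.

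All 7 MHC class II genes, whose products present antigen, rose in WT and 0 changed in MKO, against 9.50% and 2.01% of all genes. Their medians were 1.27 in WT and 0.01 in MKO. The MKO median was -0.26 without MKO HFD rep 3 and 0.21 without MKO NCD rep 2. Their interactions were all below 0 with a median of -1.28. None passed the threshold in the edgeR test, 6 had an unadjusted p under 0.05, and 2 passed without MKO HFD rep 3. DESeq2 called 4 of them and limma-voom 0, and in MKO 0 diet responses had an unadjusted p under 0.05. Genes of resident and alternatively activated macrophages rose in WT for 5 of 16 and in MKO for 0, against 9.50% and 1.04% of all genes. Their median interaction was -0.92, and 1 of the interactions, that of Stab1, passed. The MKO diet responses called were 0 in DESeq2 and limma-voom too, with 2 at an unadjusted p under 0.05 in edgeR. The MKO median of 0.12 became -0.02 without MKO HFD rep 3 and 0.30 without MKO NCD rep 2. Mrc1, the mannose receptor of that list, read 52.2, 105 and 85.01 CPM in WT NCD, 98.7, 129 and 62.1 in MKO NCD, 244, 350.0 and 250.4 in WT HFD and 100.1, 84.7 and 119 in MKO HFD. It was higher in WT HFD than in every other library, with an interaction of -1.73 (SE 0.42, adjusted p = 0.0920). Hmox1, which breaks down haem, had an interaction of -2.01 (SE 0.44, adjusted p = 0.0695), and its MKO HFD level was 41.0 ± 14.3 CPM against 146 ± 49.9 CPM in WT HFD (mean ± SD, n = 3).

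**Figure D4:**
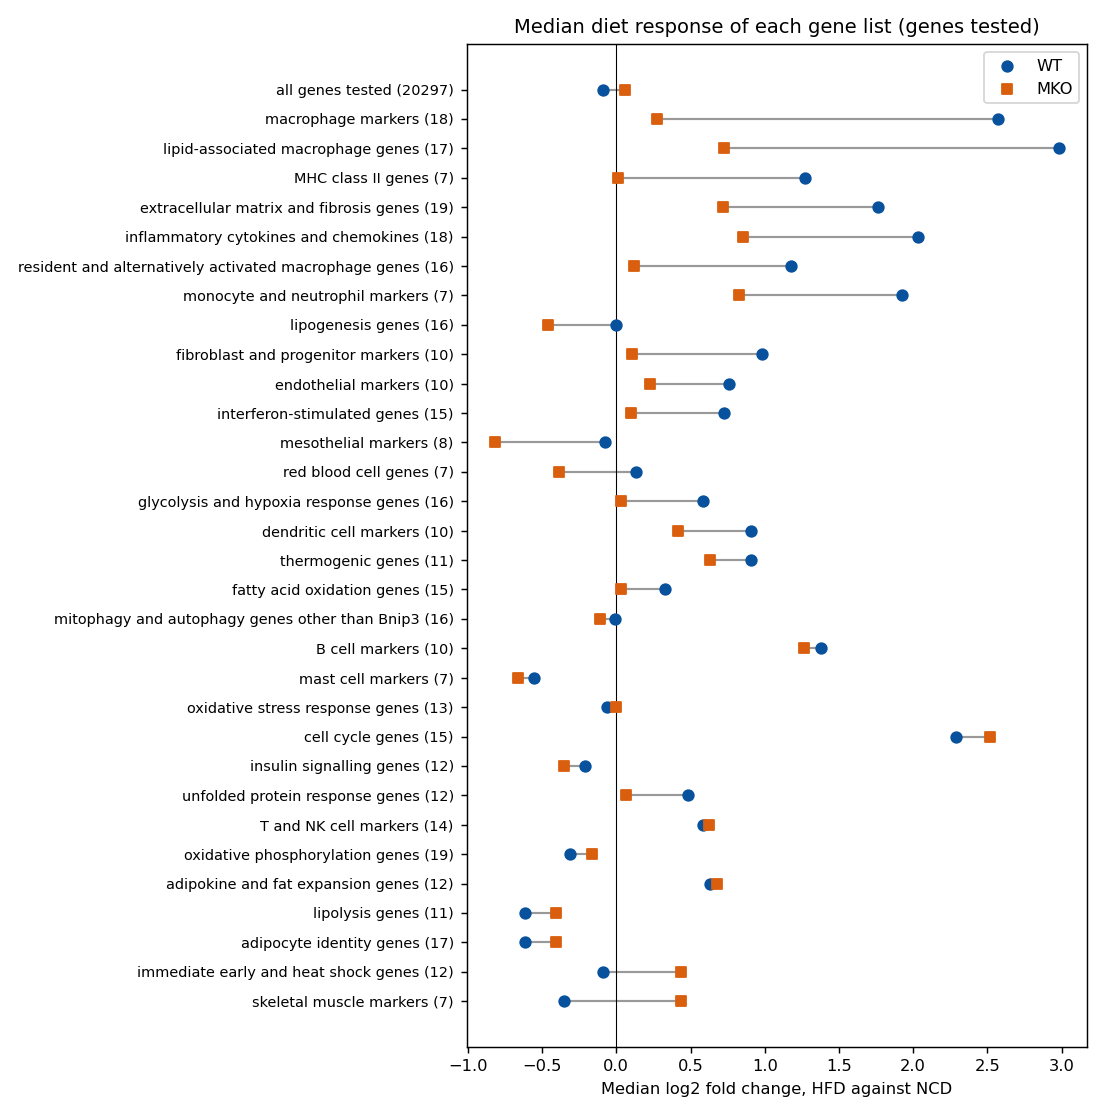
Median log2 fold change of HFD against NCD over the tested members of each list, in WT (circles) and in MKO (squares), with the number tested in brackets. Macrophage markers are at 2.57 in WT and 0.28 in MKO, extracellular matrix genes at 1.77 and 0.72, and cell cycle genes at 2.29 and 2.52.

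Promoter sequence was read for the 15 genes for which WT HFD stood apart, which move together by the rule that picked them. The motif searched was that of PU.1, the product of Spi1 and a transcription factor of macrophages. Spi1 read 5.02, 17.02 and 6.05 CPM in WT NCD, 7.92, 19.6 and 6.92 in MKO NCD, 55.5, 64.4 and 35.9 in WT HFD and 9.38, 7.41 and 14.9 in MKO HFD, with an interaction of -2.59 (SE 0.74, adjusted p = 0.137). It was named after its values were seen. The letters GAGGAAGT, the core of a PU.1 binding site, were searched on both strands of the 250 bases before the transcription start, in RefSeq sequence of the GRCm38.p6 build. Of the 15 genes 12 had an entry, and 2 of these 12 (16.7%) held the letters, against 2.44% of all 32851 promoter entries and 2.79% of the 27025 genes with an entry. With 2 genes this is a description of these windows, and a part of PU.1 in the diet response was not tested. The 2 stretches are shown with the motif in capitals, both on the plus strand. In Cmtm3 it lies from base -240 to -233 from the start (chr8:104340344-104340593), and in Frrs1 from -15 to -8 (chr3:116859317-116859566).
Cmtm3: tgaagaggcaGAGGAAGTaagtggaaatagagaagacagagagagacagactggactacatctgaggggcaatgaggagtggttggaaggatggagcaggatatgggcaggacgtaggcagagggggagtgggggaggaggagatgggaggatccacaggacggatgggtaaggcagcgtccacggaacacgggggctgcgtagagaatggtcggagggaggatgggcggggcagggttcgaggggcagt
Frrs1: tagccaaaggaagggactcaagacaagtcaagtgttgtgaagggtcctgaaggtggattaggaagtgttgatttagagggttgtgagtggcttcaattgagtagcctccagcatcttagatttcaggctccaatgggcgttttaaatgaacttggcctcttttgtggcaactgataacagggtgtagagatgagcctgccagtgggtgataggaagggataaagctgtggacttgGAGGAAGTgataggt

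For 7 of the 53 genes no group stood apart. Plin2 (chr4:86626910-86670217), which coats lipid droplets and is abundant in lipid-laden macrophages, read 128, 193 and 163 CPM in WT NCD, 345, 332 and 389.5 in MKO NCD, 1139, 1252 and 767 in WT HFD and 440.3, 486 and 626 in MKO HFD. WT NCD was lowest and WT HFD highest, with both MKO groups between them and MKO HFD above MKO NCD in every library. Its response was 2.71 (adjusted p = 8.95e-05, SE 0.22) in WT and 0.54 (adjusted p = 0.227, SE 0.21) in MKO, with an interaction of -2.17 (SE 0.30, adjusted p = 0.0261). Mfsd12, a lysosomal membrane transporter of cysteine, rose in WT by 1.69 (adjusted p = 7.52e-04, SE 0.22). In MKO its level was 52.7 ± 9.60 CPM on NCD and 38.2 ± 5.84 CPM on HFD (mean ± SD, n = 3), and the interaction was -2.16 (SE 0.31, adjusted p = 0.0261). Plekhm1, an adaptor for fusion of lysosomes, had an interaction of -1.16 (SE 0.18, adjusted p = 0.0294), with a WT response of 0.67.

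Rtn4 (chr11:29692898-29744414), a reticulon that shapes the endoplasmic reticulum, read 206, 202 and 209 CPM in WT NCD, 338, 322 and 299.7 in MKO NCD, 820.4, 757 and 611 in WT HFD and 571, 541 and 610.2 in MKO HFD. It rose in both genotypes, by 1.82 (adjusted p = 5.38e-05, SE 0.12) in WT and 0.84 (adjusted p = 0.00856, SE 0.12) in MKO, and the NCD and HFD libraries did not overlap in either. The smaller MKO rise gave an interaction of -0.98 (SE 0.17, adjusted p = 0.0465). It was the gene with the smallest interaction that passed.

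Sgpl1 and Cth were the named genes that were not blunted. Sgpl1 (chr10:61098642-61147684), the lyase that destroys sphingosine 1-phosphate, read 136, 182 and 135 CPM in WT NCD, 202, 261 and 209 in MKO NCD, 198, 219 and 164 in WT HFD and 97.7, 111 and 125 in MKO HFD. It fell by 1.01 (adjusted p = 0.0160, SE 0.17) in MKO, with all MKO HFD libraries below all MKO NCD libraries. The WT groups overlapped, with a response of 0.36 (adjusted p = 0.167, SE 0.17), and the interaction was -1.37 (SE 0.23, adjusted p = 0.0489). Cth (chr3:157894248-157925081), which makes cysteine from cystathionine, read 26.9, 29.4 and 23.4 CPM in WT NCD, 11.6, 12.2 and 10.95 in MKO NCD, 16.7, 13.5 and 16.7 in WT HFD and 20.8, 22.1 and 17.6 in MKO HFD. It fell in WT, -0.77 (adjusted p = 0.00557, SE 0.15), and rose in MKO, 0.80 (adjusted p = 0.0272, SE 0.15), without overlap between diets in either genotype. The interaction of Cth was 1.56 (SE 0.21, adjusted p = 0.0256). The predicted gene LOC115487795, outside the naming rule, had 29, 21 and 25 counts in WT NCD, 18, 21 and 18 counts in MKO HFD, and 0 counts in all 6 libraries of WT HFD and MKO NCD. Of these 7 genes, 0 passed without MKO NCD rep 3, WT HFD rep 1, WT HFD rep 2, MKO HFD rep 1 or MKO HFD rep 2. There were 2 without WT NCD rep 1 (Cth and Plin2) or without MKO NCD rep 1 (Mfsd12 and Plekhm1), 4 without WT NCD rep 2 or rep 3, 6 without WT HFD rep 3, and all 7 without MKO NCD rep 2 or MKO HFD rep 3.

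WT NCD stood apart as the low group for 9 genes, among them enzymes of fatty acid, triglyceride and sterol synthesis. Me1 (chr9:86581363-86695914), the malic enzyme that supplies NADPH for fatty acid synthesis, read 365, 294 and 447 CPM in WT NCD, 1515, 1402 and 1626 in MKO NCD, 1229.7, 1138 and 1004 in WT HFD and 1435, 1699.7 and 1239.8 in MKO HFD. All WT NCD libraries were below all others, and the MKO groups overlapped and lay above all WT HFD libraries. The response was 1.61 (adjusted p = 2.82e-04, SE 0.17) in WT and -0.05 (adjusted p = 0.912, SE 0.17) in MKO, with an interaction of -1.66 (SE 0.24, adjusted p = 0.0261). Gpd1 (chr15:99717587-99725014), which makes glycerol 3-phosphate for triglyceride, read 359.9, 539.9 and 459 CPM in WT NCD, 1173, 1063 and 1428 in MKO NCD, 1754, 1522 and 1194 in WT HFD and 1148, 1209.7 and 1126 in MKO HFD. WT NCD was again below every other library, and an interaction of -1.79 (SE 0.26, adjusted p = 0.0261) went with a MKO response of -0.07. Slc25a1, the mitochondrial citrate carrier, had an interaction of -1.45 (SE 0.21, adjusted p = 0.0272).

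Dhcr7 (chr7:143823167-143848410), which carries out the last step of cholesterol synthesis, read 10.1, 8.62 and 8.81 CPM in WT NCD, 19.8, 28.6 and 18.3 in MKO NCD, 45.6, 58.9 and 45.7 in WT HFD and 26.3, 35.6 and 38.8 in MKO HFD. Its WT NCD libraries were the lowest, WT HFD was the highest group, and the MKO groups overlapped in between. Dhcr7 had an interaction of -1.85 (SE 0.29, adjusted p = 0.0294). Lss (chr10:76531565-76557139), which closes the sterol rings, read 25.9, 27.7 and 28.02 CPM in WT NCD, 62.6, 52.4 and 52.3 in MKO NCD, 87.1, 107 and 78.2 in WT HFD and 75.8, 85.5 and 87.1 in MKO HFD. It rose in both genotypes, by 1.74 (adjusted p = 7.90e-05, SE 0.13) in WT and 0.57 (adjusted p = 0.0490, SE 0.13) in MKO, with an interaction of -1.16 (SE 0.18, adjusted p = 0.0294). Slc36a2, an amino acid transporter found on brown and beige adipocytes, also rose in both, by 2.01 in WT and 0.73 in MKO, with an interaction of -1.27 (SE 0.18, adjusted p = 0.0261). Fabp5, which binds fatty acids in macrophages and adipocytes, had an interaction of -1.78 (SE 0.29, adjusted p = 0.0368), and its count may include reads of processed copies elsewhere in the genome. The other 2 genes were glycogenin, Gyg (-1.25), which primes glycogen, and the matrix protease Mmp19 (-1.25).

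Of the 16 lipogenesis genes on the list, 5 rose and 5 fell in WT, against 9.50% and 8.28% of all genes tested. In MKO 0 rose and 3 fell, against 1.04% and 0.966%. In MKO 1 fell without MKO HFD rep 3, where 3 interactions passed, and 4 fell without MKO NCD rep 2, where 2 passed. The interaction of Me1 passed, while DESeq2 called 7 and limma-voom 3, all below 0. The median interaction of the list was -0.72, with 13 of 16 below 0. The summed level was 23824 to 34739 CPM in WT NCD, 67611 to 82999 in MKO NCD, 26553 to 40126 in WT HFD and 55133 to 67802 in MKO HFD. Both MKO groups were above both WT groups. Acly, which cleaves citrate to acetyl-CoA, read 326, 267 and 502 CPM in WT NCD, 1618, 1341 and 2232 in MKO NCD, 355, 410.0 and 339.9 in WT HFD and 567, 692 and 499 in MKO HFD. It fell in MKO, -1.56 (adjusted p = 0.0147, SE 0.25), while the WT value was 0.01 (adjusted p = 0.980, SE 0.25), and the interaction, -1.58 (SE 0.35, adjusted p = 0.0712), did not pass. Fasn, the fatty acid synthase, followed the same order of groups with an interaction of -1.58 (SE 0.39, adjusted p = 0.0979). Acaca, the acetyl-CoA carboxylase, fell by 1.08 (adjusted p = 0.00215, SE 0.18) in WT and by 1.70 (adjusted p = 0.00249, SE 0.18) in MKO. Acss2, which activates acetate, and Agpat2, which adds the second acyl chain of triglyceride, had interactions of -1.33 (SE 0.25, adjusted p = 0.0565) and -1.22 (SE 0.26, adjusted p = 0.0659). Acly, Fasn and Acaca were named after their values were seen.

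WT NCD stood apart as the high group for 22 genes, with interactions of 1.12 to 5.07 among the 21 that are not predicted genes. Gldc (chr19:30098441-30175441), the glycine decarboxylase of mitochondria, read 142, 91.98 and 84.7 CPM in WT NCD, 1.04, 2.81 and 1.89 in MKO NCD, 2.94, 3.37 and 2.15 in WT HFD and 1.62, 1.77 and 1.75 in MKO HFD. Each WT NCD library was far above the other 9, which lay close together, and an interaction of 5.07 (SE 0.47, adjusted p = 0.00753) was the largest of the named genes. Cd52 (chr4:134093538-134095073), a small surface antigen of lymphocytes that is also made by the epididymal epithelium, read 784, 506 and 338 CPM in WT NCD, 10.9, 12.95 and 7.45 in MKO NCD, 45.7, 58.1 and 37.7 in WT HFD and 9.98, 9.08 and 17.1 in MKO HFD. WT NCD was highest, WT HFD came next without overlap, and both MKO groups were lower still. Cd52 had an interaction of 3.73 (SE 0.49, adjusted p = 0.0225).

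Emx2 (chr19:59458690-59465357), a homeobox gene of the urogenital tract, read 58.9, 28.2 and 29.04 CPM in WT NCD, 1.61, 1.09 and 0.578 in MKO NCD, 1.28, 0.801 and 1.35 in WT HFD and 1.07, 0.557 and 0.547 in MKO HFD, and had an interaction of 4.49 (SE 0.65, adjusted p = 0.0261). Aqp9, a channel for water and glycerol, had an interaction of 3.44 (SE 0.53, adjusted p = 0.0294), and Fads2, the desaturase of polyunsaturated fatty acids, had an interaction of 3.49 (SE 0.61, adjusted p = 0.0496). Fads2 read 562, 299 and 125 CPM in WT NCD, a wide spread, and at most 30.6 CPM in the other 9 libraries. With limma-voom the interactions of Emx2, Aqp9, Fads2, Fanca and Hspa1a did not pass. Fanca, of the Fanconi DNA repair complex, had an interaction of 4.39 (SE 0.72, adjusted p = 0.0428). It fell in WT but had 53, 94 and 21 counts in MKO NCD and 198, 153 and 164 counts in MKO HFD. This rise in MKO did not pass. Hspa1a, the inducible heat shock protein 70, read 35.96, 20.6 and 15.5 CPM in WT NCD, 3.38, 3.11 and 4.45 in MKO NCD, 3.60, 6.52 and 5.87 in WT HFD and 8.02, 6.60 and 11.9 in MKO HFD, and had an interaction of 3.45 (SE 0.52, adjusted p = 0.0294). All MKO HFD libraries lay above all MKO NCD libraries for Hspa1a, although its MKO response did not pass. The reads of Hspa1a may be shared with the near-identical Hspa1b.

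Hdac6, the cytoplasmic deacetylase of tubulin, read 105, 83.8 and 163 CPM in WT NCD, 22.5, 23.4 and 20.4 in MKO NCD, 15.2, 14.9 and 18.04 in WT HFD and 16.7, 18.96 and 16.1 in MKO HFD, and had an interaction of 2.51 (SE 0.29, adjusted p = 0.0125). Nhsl1 had an interaction of 2.63 (SE 0.29, adjusted p = 0.00983), and Dnajc10, a disulfide reductase of the endoplasmic reticulum, had an interaction of 1.91 (SE 0.24, adjusted p = 0.0180). Wars (2.498), the tryptophan tRNA synthetase, Tbx3 (2.35), a T-box transcription factor, and Suox (1.96), the sulfite oxidase, were next in size. The rest of these genes lay between 1.12 and 1.84: choline kinase Chka (1.84), the Hsp90 partner Fkbp4 (1.64), the nuclear envelope protein Syne2 (1.47), the actin motor Myo6 (1.44), the Rab8 exchange factor Rab3ip (1.39), the sphingosine 1-phosphate phosphatase Sgpp1 (1.32), the kinase inhibitor Pebp1 (1.27) and Ivns1abp (1.12). Ivns1abp, which also fell in MKO, read 482, 533 and 412 CPM in WT NCD, 222, 217 and 209 in MKO NCD, 124, 132 and 134 in WT HFD and 114, 124 and 146 in MKO HFD.

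The same 3 WT NCD libraries carried the epididymis transcripts. Of 13 epididymis genes, 8 had enough counts to be tested. In WT 7 of these fell with HFD and in MKO 0 passed, against 8.28% and 2.01% of all genes tested. Crisp1, a secreted protein of the epididymal duct, read 4289, 4084 and 1828 CPM in WT NCD, 13.7, 0 and 1.02 in MKO NCD, 0, 0 and 0.0356 in WT HFD and 0.202, 0 and 0 in MKO HFD. Its interaction did not pass (adjusted p = 0.331, SE 4.90), and the fitted fold is not given, since 4 of the 6 HFD libraries and 1 MKO NCD library were at 0. Skeletal muscle markers also stood out in 2 of these libraries. The 8 markers summed to 339, 56.5 and 8.47 CPM in WT NCD rep 1, 2 and 3, and to 11.6 to 24.8 CPM in the other 9 libraries. The part of the epididymis or muscle transcripts in the 31 genes for which WT NCD stood apart was not tested. The summed adipocyte identity genes were 24290.0 to 42844 CPM in WT NCD and 36929 to 48179 CPM in MKO NCD. They were 23649 to 29754 CPM in WT HFD and 33551 to 37529.6 CPM in MKO HFD. The WT NCD range overlapped those of MKO NCD, WT HFD and MKO HFD. Of the 31 genes, 1 (Gldc) passed without WT HFD rep 1, 2 without WT HFD rep 2 and 2 without MKO NCD rep 3. There were 5 without MKO HFD rep 2, 6 without MKO HFD rep 1, 10 without MKO NCD rep 1, 14 and 18 without WT NCD rep 1 and rep 2, and 24 and 29 without WT HFD rep 3 and WT NCD rep 3. All 31 passed without MKO NCD rep 2 or MKO HFD rep 3.

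**Figure D5:**
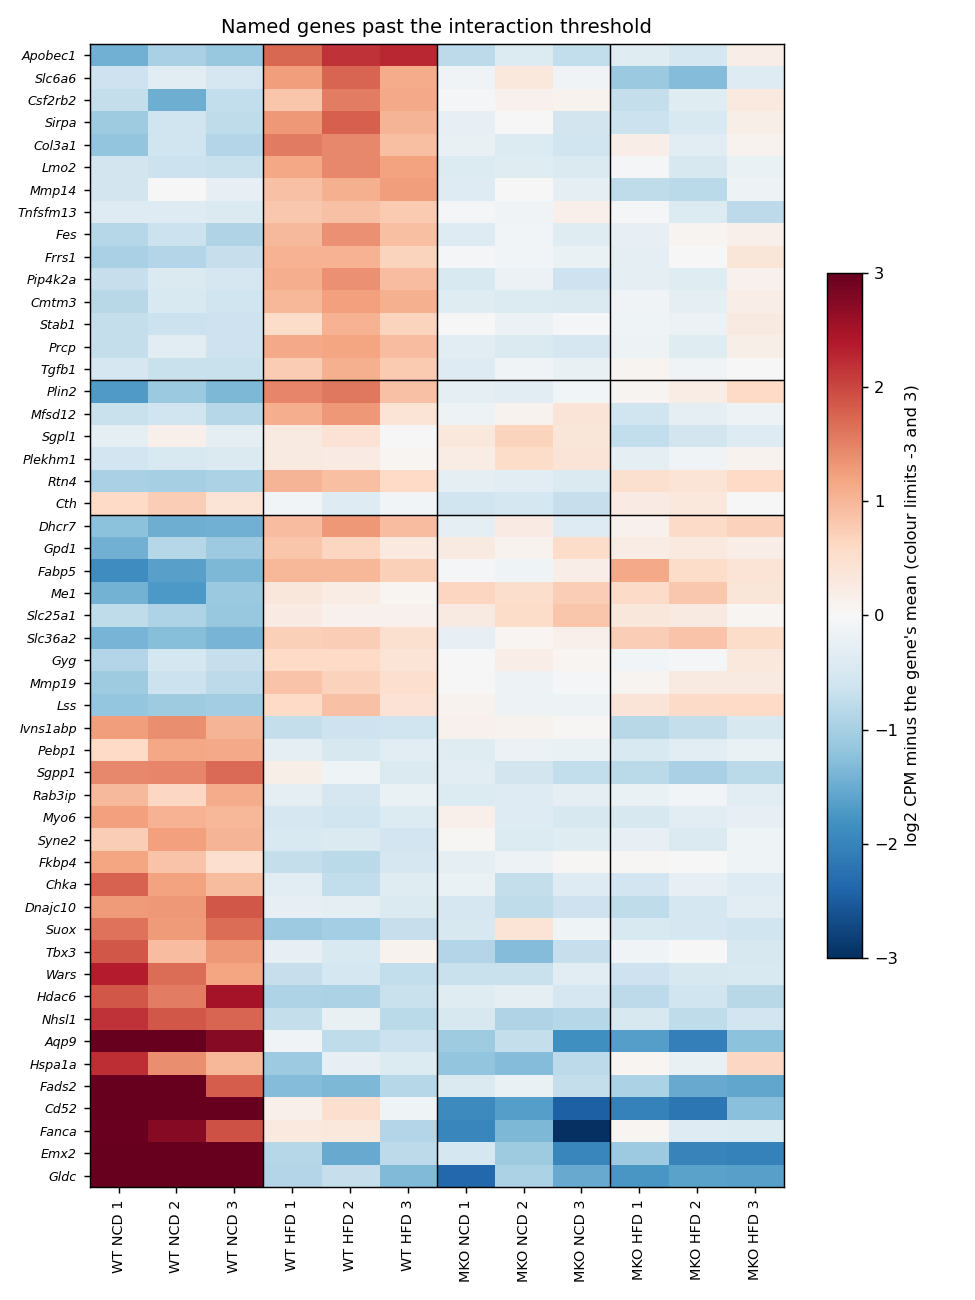
Log2 CPM minus the mean of the gene over the 12 libraries, for 51 named genes past the interaction threshold (rows) in each library (columns, by group), with horizontal lines between the genes for which WT HFD, no group or WT NCD stands apart. The upper block of 15 genes is high in WT HFD, and in the lower block of 30 genes WT NCD is low for 9 and high for 21.

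The 175 kept genes comprised 88 that rose and 87 that fell in both genotypes. Hmgcs1 (chr13:119690351-119708260), which makes the HMG-CoA from which cholesterol is built, read 105, 153 and 174 CPM in WT NCD, 246, 234 and 196 in MKO NCD, 693, 657 and 621 in WT HFD and 686, 911 and 761 in MKO HFD. It rose by 2.19 (adjusted p = 1.02e-04, SE 0.19) in WT and 1.80 (adjusted p = 0.00249, SE 0.19) in MKO, the diets did not overlap in either genotype, and the interval of the interaction was -0.95 to 0.17. Per3, a period gene of the circadian clock, read 136, 90.1 and 117 CPM in WT NCD, 135, 186 and 149 in MKO NCD, 29.5, 16.7 and 30.6 in WT HFD and 41.6, 34.6 and 32.4 in MKO HFD. It fell by 2.16 (adjusted p = 3.57e-04, SE 0.24) in WT and by 2.12 (adjusted p = 0.00334, SE 0.24) in MKO, with an interval of -0.68 to 0.77. Slc5a6, the transporter of biotin and pantothenate, fell by 2.34 (adjusted p = 3.63e-04, SE 0.26) in WT and by 2.25 (adjusted p = 0.00360, SE 0.26) in MKO, with an interval of -0.70 to 0.87. Slfn9, of the Schlafen family, rose by 2.14 in WT and 1.92 in MKO, with an interval of -0.87 to 0.44. Podn, a small proteoglycan, fell by 1.96 in WT and by 1.72 in MKO, with an interval of -0.53 to 1.00. Without MKO HFD rep 3 the count of kept genes was 39, and without MKO NCD rep 2 it was 140.

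Cell cycle genes had medians of 2.29 in WT and 2.52 in MKO and a median interaction of -0.06. Of 15 members, 4 rose in WT and 2 in MKO, against 9.50% and 1.04% of all genes tested. DESeq2 called 9 in WT and 7 in MKO, and limma-voom 10 and 2. MKO NCD rep 2 had 9 of the 15 at 0, and without it 13 rose in WT and 8 in MKO, with a median interaction of -0.31, while without MKO HFD rep 3 the median was 0.20. No interaction passed with edgeR, DESeq2 or limma-voom, and 0 had an unadjusted p under 0.05. The summed level was 89.3 to 109 CPM in WT NCD, 60.9 to 92.2 in MKO NCD, 296 to 448 in WT HFD and 188 to 305 in MKO HFD, so that HFD and NCD libraries did not overlap in either genotype. Mki67, the proliferation antigen Ki-67, read 6.05, 9.98 and 10.3 CPM in WT NCD, 9.20, 13.03 and 6.55 in MKO NCD, 71.9, 100.4 and 61.8 in WT HFD and 79.6, 48.5 and 36.7 in MKO HFD. It rose in both genotypes, by 3.15 (adjusted p = 4.04e-04, SE 0.36) and 2.52 (adjusted p = 0.00913, SE 0.35), and the interval of its interaction, -1.68 to 0.41, was too wide to call it kept. Top2a, the topoisomerase of dividing cells, likewise rose in both, by 2.72 and 2.38, with an interval of -1.21 to 0.53.

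Among inflammatory cytokines and chemokines, 5 of 18 rose in WT and 1 in MKO, against 9.50% and 1.04% of all genes tested. With edgeR, DESeq2 or limma-voom 0 interactions passed, and 3 had an unadjusted p under 0.05. Of the diet responses, DESeq2 called 9 in WT and 3 in MKO, and limma-voom 8 and 0. Of the 19 members in the table, 13 were at 0 in MKO NCD rep 2, and without that library 11 of 19 rose in WT and 1 in MKO. The counts were 5 and 0 without MKO HFD rep 3. Ccl2, the chemokine that draws monocytes, was the member that rose in MKO. Libraries had 1.84, 3.19 and 1.86 CPM in WT NCD, 2.61, 4.16 and 1.21 in MKO NCD, 19.8, 21.9 and 17.1 in WT HFD and 8.89, 11.6 and 18.9 in MKO HFD, and the diets did not overlap in either genotype. It rose by 3.09 (adjusted p = 0.00147, SE 0.47) in WT and 2.30 (adjusted p = 0.0315, SE 0.45) in MKO, with an interaction of -0.79 (SE 0.61, adjusted p = 0.702) and an interval of -2.14 to 0.56. Tnf, which encodes tumour necrosis factor, was at most 2.21 CPM in all libraries, and its interaction was -2.44 (SE 1.02, adjusted p = 0.327).

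Adipocyte genes were changed by diet in both directions. Of 17 adipocyte identity genes, 3 rose and 8 fell in WT, against 9.50% and 8.28% of all genes tested. In MKO 0 rose and 2 fell, against 1.04% and 0.966%. No interaction passed in the edgeR test, with 8 at an unadjusted p under 0.05. DESeq2 called 6 of the interactions, 4 above and 2 below 0, and limma-voom 0. The median response was -0.62 in WT and -0.41 in MKO. In MKO 0 members fell without MKO HFD rep 3 or without MKO NCD rep 2. Pck1, which feeds glycerol synthesis, read 1302, 2695 and 1615 CPM in WT NCD, 1482, 2133 and 1853 in MKO NCD, 248, 237 and 299 in WT HFD and 818, 809.9 and 668 in MKO HFD. It fell by 2.84 (adjusted p = 1.40e-04, SE 0.26) in WT and by 1.25 (adjusted p = 0.0322, SE 0.25) in MKO, and WT HFD lay below MKO HFD without overlap. The interaction of Pck1 was 1.59 (SE 0.35, adjusted p = 0.0695). Adrb3, the adrenergic receptor that triggers lipolysis, read 856, 573 and 669 CPM in WT NCD, 1098, 879 and 1440.4 in MKO NCD, 98.5, 55.5 and 204 in WT HFD and 879, 714 and 575 in MKO HFD. It fell in WT, and MKO HFD stayed well above WT HFD, with an interaction of 1.90 (SE 0.55, adjusted p = 0.143). Retn, which encodes resistin, showed the same order of groups, with an interaction of 1.78 (SE 0.49, adjusted p = 0.126).

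Lep, which encodes the satiety hormone leptin, read 512, 728 and 992 CPM in WT NCD, 1962, 2490.4 and 1009.5 in MKO NCD, 5352, 4348 and 4526 in WT HFD and 3089.9, 3898 and 4659.7 in MKO HFD. It rose in WT, 2.67 (adjusted p = 5.82e-04, SE 0.34), and did not pass in MKO, 1.09 (adjusted p = 0.118, SE 0.32), although all MKO HFD libraries were above all MKO NCD libraries. The interaction of Lep was -1.58 (SE 0.45, adjusted p = 0.135). Adipoq, which encodes adiponectin, had an interaction of 0.28 (SE 0.37, adjusted p = 0.866) with an interval of -0.55 to 1.10.

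Glycolysis and hypoxia response genes rose in WT for 10 of 16 and fell for 2, against 9.50% and 8.28% of all genes tested. In MKO 1 rose and 1 fell, against 1.04% and 0.966%, and 2 were kept. In MKO 0 rose and 1 fell without MKO NCD rep 2, and 0 changed without MKO HFD rep 3. The median response was 0.59 in WT and 0.03 in MKO, with a median interaction of -0.45. The summed level was 3278 to 3306 CPM in WT NCD, 4762 to 5465 in MKO NCD, 4888 to 5651 in WT HFD and 5373 to 5574 in MKO HFD. WT NCD lay below all other libraries. Aldoa, which splits fructose 1,6-bisphosphate, read 744, 735 and 701 CPM in WT NCD, 1337, 1253 and 1482 in MKO NCD, 1490.1, 1281 and 1309 in WT HFD and 1362, 1334 and 1511 in MKO HFD, with an interaction of -0.86 (SE 0.16, adjusted p = 0.0565). Pfkl and Pkm, the phosphofructokinase and pyruvate kinase, had interactions of -0.67 (SE 0.13, adjusted p = 0.0565) and -0.81 (SE 0.16, adjusted p = 0.0565). The counts of interactions past the threshold on this list were 0 with all libraries in edgeR, 7 with DESeq2, 4 with limma-voom, 4 without MKO NCD rep 2 and 2 without MKO HFD rep 3, and 8 of 16 had an unadjusted p under 0.05 in edgeR.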

How the data were processed

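The 12 libraries were made from mRNA of gonadal fat, 3 biological replicates in each of 4 groups. The kit marks strand, per the labels' protocols. Per the submitters' processing notes, the tools were HISAT2 2.1.0, Trimmomatic, DESeq2, StringTie 1.3.4d and bcl2fastq 2.20.0, and the build was mm10. Which step made the counts and whether strand was used are not given in the sources used here. The authors deposited raw read counts per gene and library, per the file headers, and these were tested. A further 36 per-sample columns of normalized values were not used.

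In R 4.3.3, edgeR 4.0.16 was run with filterByExpr by group, TMM library sizes and a robust quasi-likelihood fit of all 12 libraries. P was adjusted by Benjamini-Hochberg over 20297 genes. The SE is the absolute log2 fold change over the square root of F. Intervals are 95% and cover the spread between libraries. Positions and promoters are from RefSeq on GRCm38, which matched 20246 of the tested genes. No 2 libraries had identical columns.

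Members and gene lists were chosen with earlier results of these data known, so that the lists are described by counts and medians, with no test of their own. The genes named are Bnip3, the 8 largest interactions past the threshold in each direction, the 4 smallest p of each class and of each group that stood apart, the 6 largest kept responses, the 10 smallest p, the 3 members of each list with the smallest p and a fixed panel of 10 genes, leaving out predicted genes and, for the largest values and the classes, means under 1 CPM. The text names a subset. The other genes past the threshold, and Lum, Col1a1, Acly, Acaca, Fasn, Spi1 and Lgals3, were named after their values were seen.

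Alternatives were RLE and upper-quartile sizes, no filter and a filter of 1 CPM, DESeq2 1.42.0, a fit with no robust spread, a replicate block, limma-voom (limma 3.58.1), fits of only the 6 libraries compared, a stricter rule for standing apart, and leaving out each library. The fits were tested on simulated data. Matplotlib 3.10.9 under Python 3.11.15 drew the figures.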

Additional observations from a re-analysis of the deposited data

Results flagged for a closer look

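The diet response differed between the genotypes, by the test of the difference itself, for 53 genes: 24 with an interaction above 0 and 29 with an interaction below 0. Each value in brackets is the log2 interaction of a gene that passed that test, and 2 predicted genes among the 53 are not named. The values are listed by the group that stood apart.

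Among the genes highest in WT HFD, the interactions were those of Apobec1 (-2.81), Slc6a6 (-2.80), Csf2rb2 (-2.41), Sirpa (-2.23), Col3a1 (-1.78), Lmo2 (-1.73), Mmp14 (-1.66), Tnfsfm13 (-1.63), Fes (-1.62), Frrs1 (-1.61), Pip4k2a (-1.43), Cmtm3 (-1.37), Stab1 (-1.35), Prcp (-1.29) and Tgfb1 (-1.27). Where no group stood apart, they were those of Plin2 (-2.17), Mfsd12 (-2.16), Sgpl1 (-1.37), Plekhm1 (-1.16), Rtn4 (-0.98) and Cth (1.56).

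Among the genes lowest in WT NCD, the interactions were those of Dhcr7 (-1.85), Gpd1 (-1.79), Fabp5 (-1.78), Me1 (-1.66), Slc25a1 (-1.45), Slc36a2 (-1.27), Gyg (-1.25), Mmp19 (-1.25) and Lss (-1.16). Among the genes highest in WT NCD, they were those of Gldc (5.07), Emx2 (4.49), Fanca (4.39), Cd52 (3.73), Fads2 (3.49), Hspa1a (3.45), Aqp9 (3.44), Nhsl1 (2.63), Hdac6 (2.51), Wars (2.5), Tbx3 (2.35), Suox (1.96), Dnajc10 (1.91), Chka (1.84), Fkbp4 (1.64), Syne2 (1.47), Myo6 (1.44), Rab3ip (1.39), Sgpp1 (1.32), Pebp1 (1.27) and Ivns1abp (1.12).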

How the results depend on the processing

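The interaction gave 53 genes, and RLE sizes, upper-quartile sizes, no filter, a filter of 1 CPM and no robust spread gave 44 to 58. DESeq2 gave 1162 (52 of the 53 among them, with no adjusted p for the other) and limma-voom 176 (47 of the 53). The genes that limma-voom did not call were Emx2, Aqp9, Fanca, Fads2, Hspa1a and a predicted gene, all highest in WT NCD. Their limma-voom adjusted p was 0.0537 to 0.322. Of the 53, 52 kept their sign under all 20 alternatives, and a predicted gene under the 19 that gave it a value. Leaving out 1 library gave 2 to 288 genes for the interaction, 1884 to 6789 for diet in WT (main count 3610) and 75 to 480 for diet in MKO (main count 408). DESeq2 gave 5468 for diet in WT and 1781 for diet in MKO, and a fit of only the 6 MKO libraries gave 41. The cause was not tested.

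Same-numbered libraries of different groups had correlations of -0.187 to 0.168 in their deviations from group means, over 0.1 for 4 of 18 pairs. Other pairs had -0.200 to 0.179 (8 of 36). The correlations gave no sign that the numbers pair the samples, but cannot exclude it. With a replicate block the interaction gave 12 genes, 11 of them among the 53, and diet in MKO gave 160. The block also gave 12 blunted, 0 enlarged, 0 reversed, 70 kept and 68 genes called in both with a wide interval.

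The 50 blunted genes became 165 with limma-voom, 179 without MKO NCD rep 2 and 274 without MKO HFD rep 3. The 1 enlarged gene became 8, 11 and 13 in these, and the 2 reversed genes became 3, 1 and 1. The 175 kept genes became 140 without MKO NCD rep 2 and 39 without MKO HFD rep 3, and the 142 with a wide interval became 174 and 37. With a gap of 2 times the range, WT NCD stood apart for 19 genes, WT HFD for 7 and no group for 27. Without MKO NCD rep 2 the counts were 100 for WT NCD, 51 for WT HFD, 3 for MKO NCD, 2 for MKO HFD and 35 for none. Without MKO HFD rep 3 they were 56, 189, 1, 2 and 40. The alternatives for classes, groups and lists without MKO HFD rep 3, and for lists without MKO NCD rep 2, were chosen after seeing the data.

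Of the named genes, 3 uncalled interactions near 0 changed sign when 1 library was left out. Slc5a6 interaction ranged from -0.15 to 0.36, Per3 from -0.19 to 0.19 and Adipoq from -0.10 to 0.52. The median interaction SE was 0.56 over all genes tested and 0.26 over the 53, and the smallest interaction called was 0.98 in size, which limits what 3 libraries a group can show.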

Other observations

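The median diet response of 14 T and NK cell markers was 0.58 in WT and 0.63 in MKO, and that of 10 B cell markers was 1.38 in WT and 1.26 in MKO. Both MKO medians rest on MKO NCD rep 2, which had 10 of the 14 and 8 of the 10 markers at 0. Without it the MKO median was 0.12 for T and NK cells and 0.73 for B cells, and the median interactions of 0.02 and -0.16 became -0.51 and -0.38. No interaction of either list had an unadjusted p under 0.05 in edgeR. The summed B cell markers were 156 to 293 CPM in WT NCD, 149.6 to 410.2 CPM in MKO NCD, 788 to 1420.3 CPM in WT HFD and 1027 to 1812 CPM in MKO HFD. Each HFD library lay above each NCD library for this sum.

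Of 15 interferon-stimulated genes, 7 rose in WT and 0 in MKO, against 9.50% and 1.04% of all genes tested. Their medians were 0.72 in WT and 0.10 in MKO. In WT 11 rose when MKO NCD rep 2 was left out and 4 when MKO HFD rep 3 was, and the MKO median ranged from 0.02 to 0.30 when 1 library was left out. Their sum was 404 to 416 CPM in WT HFD and 305 to 356 CPM in MKO HFD, which overlapped the 299.6 to 389.5 CPM of MKO NCD. In MKO 0 of their diet responses had an unadjusted p under 0.05 in edgeR, and DESeq2 and limma-voom called 0. Of their interactions, 0 passed in edgeR and limma-voom and 1, below 0, in DESeq2, with 4 at an unadjusted p under 0.05 in edgeR. Of 11 thermogenic genes, 5 rose and 1 fell in WT, against 9.50% and 8.28% of all genes tested. In MKO 0 passed in edgeR, against 2.01%, and the medians were 0.91 in WT and 0.63 in MKO. In MKO 5 had an unadjusted p under 0.05, and DESeq2 called 3 higher and 2 lower and limma-voom 0. Their summed level went the other way in WT, from 615 to 889.8 CPM on NCD to 142 to 286 CPM on HFD, where Adrb3, the most abundant member, fell. In MKO the sum was 993 to 1526 CPM on NCD and 666 to 979 CPM on HFD. The median interaction of the 19 oxidative phosphorylation genes was 0.13, and that of the 16 mitophagy and autophagy genes other than Bnip3 was -0.18, beside 0.12 over all genes tested. These lists are described by counts and medians, with no test of the list.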
